A study of Ovis aries with 115 samples.

Results

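PNCK (ENSOARG00000007294) and PCP4 (ENSOARG00000009912), 2 of the 27054 gene identifiers counted in the sheep cervix, were followed across 3 reproductive states and 4 breeds. Both were chosen by their levels in the 39 ewes sampled at the synchronised follicular phase, in which they were among the named genes that most set the Norwegian breeds apart from Suffolk. Their names come from the study's own tables. Bulk RNA was sequenced, with 1 library per ewe, from the cervix of adult Suffolk and Belclare ewes in Ireland (low and medium fertility breeds) and, in Norway, of ewes of the high fertility breeds Fur and Norwegian White Sheep (NWS). Fertility here is the pregnancy rate after cervical or vaginal insemination with frozen-thawed semen, by which the study ranks the breeds. Ewes of each breed were sampled at the follicular phase after a progestagen sponge and equine chorionic gonadotrophin (synchronised follicular, labelled as induced), at the follicular phase of a natural cycle with no such treatment, or at the luteal phase that followed synchronisation. The groups held 11, 8 and 10 Suffolk ewes in this order, 10, 10 and 10 Belclare ewes, 8, 10 and 9 Fur ewes and 10, 10 and 8 NWS ewes. Each breed was kept in 1 country, so for Irish against Norwegian ewes the effects of breed and of country cannot be told apart.

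Calmodulin is the small protein through which many enzymes sense calcium inside a cell. When calcium rises, calmodulin binds it and switches on kinases, phosphatases and channels, among them the myosin light chain kinase that starts contraction of smooth muscle. PNCK encodes a kinase of the calcium/calmodulin-dependent protein kinase family and PCP4 a short protein that binds calmodulin and changes how quickly calmodulin takes up and releases calcium. Both are known mainly from nerve cells, and PCP4 is also known from smooth muscle. The cervix holds a lining epithelium, connective tissue and bundles of smooth muscle, so that one cervical sample can hold more of one tissue than another. In bulk RNA, fewer cells of a type and less RNA per cell cannot be told apart.

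Total counts per ewe lay between 12238996 and 31261671, and 3 counts, taken as the limit of detection, corresponded to between 0.160 and 0.190 CPM (the count scaled to the library size) in the mean of each group. Levels are CPM on library sizes normalised over all assigned ewes, so they compare a gene between ewes and not PNCK with PCP4. NWS replicates 4 and 10 of the natural follicular phase had 38.2 and 33.2 CPM of COX-1, a mitochondrial gene, within the 25.7 to 49.0 CPM of the 27 Fur ewes and far below the 816 CPM or more of the other 85 ewes. Fold changes of the members from edgeR's fit of each pair, with no covariate, are given with and without these 2 ewes. So is Pearson's r of each member with the smooth muscle genes. Other values of the members that include the 2 ewes are given with them only. Without them edgeR called 0 of all genes in NWS against Suffolk at the natural follicular phase, with 2359 genes at an unadjusted p under 0.05 and 446 called by DESeq2's Wald test. Of the smooth muscle genes, ACTG2 and DES were above that limit in every ewe. Tests used edgeR's quasi-likelihood test with Benjamini-Hochberg adjustment over 14811 genes, and a gene was called at an adjusted p under 0.05 and a fold change above 1.5.

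At the synchronised follicular phase, on which the choice of the genes rests, PNCK was near absent from the Irish cervix and present in every Norwegian one. These levels are therefore a description and were not tested. In Suffolk, PNCK had at most 3 counts in each of the 11 ewes and 0 in 5 of them. In Belclare it had a median of 0.0619 CPM, with 0 as the lowest value and 7.10 CPM as the highest. The high value was that of replicate 2 alone, since the next Belclare ewe had 0.284 CPM. In Fur, PNCK lay between 2.09 and 10.4 CPM with a median of 6.36 CPM (5.90 ± 2.91, SD, n = 8). In NWS it lay between 2.83 and 11.9 CPM with a median of 6.54 CPM (6.55 ± 2.93, SD, n = 10). No Suffolk ewe reached the lowest Norwegian ewe, and 1 of the 10 Belclare ewes did.

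PCP4 was likewise low in most Irish ewes and higher in Norwegian ewes, over a wider range. The 11 Suffolk ewes had between 0 and 0.966 CPM with a median of 0.270 CPM. The 10 Belclare ewes had a median of 0.114 CPM and a highest level of 38.6 CPM, again in replicate 2, with the second ewe at 0.379 CPM. Fur ewes had between 13.4 and 74.3 CPM with a median of 31.9 CPM (37.6 ± 23.7, SD, n = 8), and NWS ewes between 5.72 and 63.0 CPM with a median of 34.5 CPM (35.5 ± 21.7, SD, n = 10). The 2 Norwegian breeds overlapped over most of their range for both genes. Of the 39 ewes of this state, 19 reached 1 CPM of PNCK and 19 of PCP4, and 18 of each were Norwegian, so both genes passed the filter on low counts through the ewes in which they were high.

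**Figure D1:**
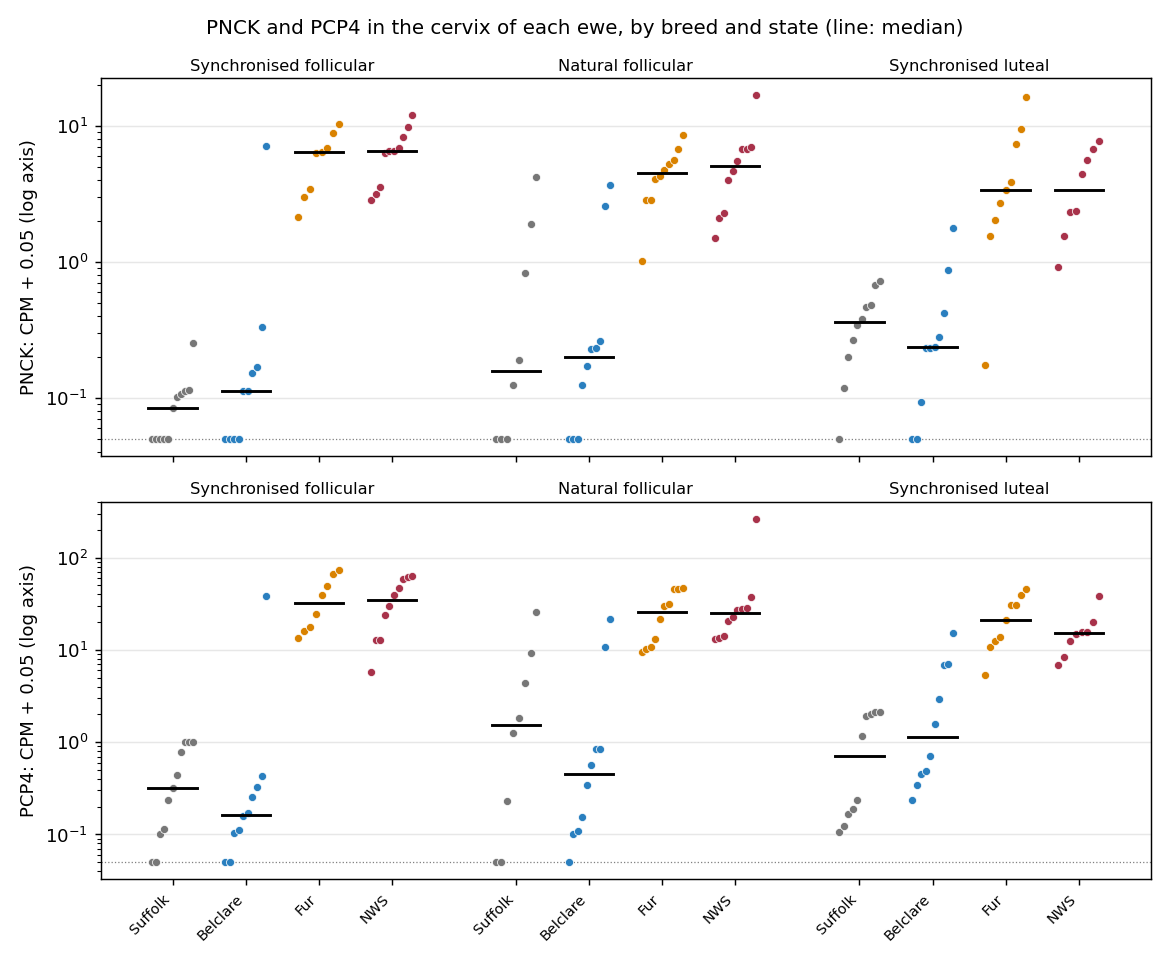
Level of PNCK (top) and PCP4 (bottom) in each ewe, in CPM plus 0.05 on a log axis, by breed and state, with 1 point per ewe and a line at each group's median. The medians of Fur and NWS are the highest in all 3 states. At the luteal phase 8 of 10 Suffolk and 7 of 10 Belclare ewes reach the lowest Norwegian level of PNCK, that of 1 Fur ewe at 0.125 CPM, and in every other panel at most 3 ewes of an Irish breed reach the lowest Norwegian ewe.

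At the natural follicular phase, whose ewes had no part in the choice, PNCK and PCP4 were again higher in most Norwegian ewes, but several Irish ewes overlapped them. PNCK lay between 0 and 4.19 CPM in Suffolk (median 0.107) and between 0 and 3.61 CPM in Belclare (median 0.150). It lay between 0.966 and 8.56 CPM in Fur (median 4.45) and between 1.45 and 16.8 CPM in NWS (median 5.04). The 2 Suffolk ewes above 1 CPM were replicates 7 and 6, at 4.19 and 1.84 CPM, and the 2 such Belclare ewes were replicates 2 and 4, at 3.61 and 2.52 CPM. Apart from them, Irish ewes had at most 0.785 CPM.

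The mean level of PNCK was 0.879 ± 1.48 CPM (SD, n = 8) in Suffolk, whereas the Fur ewes averaged 4.56 ± 2.15 CPM (n = 10). Its log2 fold change was 2.38 (standard error, SE, of 0.79, adjusted p = 0.0416), which was called, in a comparison in which 4.54% of all genes were called higher in Fur. In NWS the mean was 5.68 ± 4.39 CPM (n = 10) and the log2 fold change against the same Suffolk ewes was 2.71 (SE 0.85, adjusted p = 0.0958), which was not called, where 0.533% of all genes were called higher in NWS. It was called by DESeq2's Wald test (adjusted p = 0.0218) and with 1 fit of all 12 groups (0.0101). Without NWS replicates 4 and 10 it was 2.78 (adjusted p = 0.171). Without Suffolk replicate 7 the log2 fold change of PNCK was 3.50 in Fur (adjusted p = 0.00709) and 3.82 in NWS (adjusted p = 0.0289). The call in Fur was lost when any 1 of 11 other ewes was left out, which were Fur replicates 1, 4, 7, 8, 9 and 10 and Suffolk replicates 2, 3, 4, 8 and 9, with adjusted p of up to 0.0744.

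PCP4 lay between 0 and 26.0 CPM in Suffolk (median 1.48), between 0 and 21.4 CPM in Belclare (median 0.405), between 9.53 and 47.0 CPM in Fur (median 25.6) and between 13.2 and 264 CPM in NWS (median 25.0). The top Irish ewes were those of PNCK, with 26.0 and 9.28 CPM in Suffolk replicates 7 and 6 and 21.4 and 10.8 CPM in Belclare replicates 2 and 4. NWS replicate 5 held the highest level of PCP4 in the series at 264 CPM, the next NWS ewe being at 37.5 CPM, and also the highest PNCK, at 16.8 CPM. The log2 fold change of PCP4 against Suffolk was 2.29 in Fur (SE 0.84, adjusted p = 0.0593) and 3.15 in NWS (SE 0.99, adjusted p = 0.0963), and neither was called. Both were called by DESeq2's Wald test, with adjusted p of 0.0484 in Fur and 0.044 in NWS, and in 1 edgeR fit of all 12 groups, with 0.0423 and 0.0104. By the fit of each pair, PCP4 was called once Suffolk replicate 7 was left out, at 3.47 in Fur (adjusted p = 0.0088) and 4.33 in NWS (adjusted p = 0.0344), and in Fur also without Suffolk replicate 6, at 2.45 (adjusted p = 0.0489). Without NWS replicate 5 the value in NWS was 2.10 (adjusted p = 0.151), and without replicates 4 and 10 it was 3.37 (adjusted p = 0.16).

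Against Belclare, both genes were called higher in both Norwegian breeds at this phase. PNCK had a log2 fold change of 2.73 in Fur (SE 0.74, adjusted p = 0.0063) and of 3.03 in NWS (SE 0.79, adjusted p = 0.011). PCP4 had one of 2.93 in Fur (SE 0.87, adjusted p = 0.0105) and of 3.77 in NWS (SE 0.99, adjusted p = 0.0114). Of all genes, 8.59% were called higher in Fur than in Belclare and 8.26% higher in NWS than in Belclare, so such a call was common. Without NWS replicates 4 and 10, which had 2.23 and 6.91 CPM of PNCK and 20.4 and 14.0 CPM of PCP4, the values in NWS were 3.11 (adjusted p = 0.0209) and 3.98 (adjusted p = 0.0183). Between breeds of 1 country neither gene was called. NWS differed from Fur by 0.31 for PNCK (SE 0.38, adjusted p = 0.75) and by 0.84 for PCP4 (SE 0.54, adjusted p = 0.519), with 0.0135% of genes called higher in NWS, and by 0.38 and 1.06 without those 2 ewes (adjusted p = 0.687 and 0.413). Belclare differed from Suffolk by -0.33 for PNCK (SE 1.12) and by -0.62 for PCP4 (SE 1.23), with adjusted p of 0.942 and 0.89. In that comparison edgeR called 0 genes, or 0% of all genes, where 1443 genes had an unadjusted p under 0.05 and DESeq2's Wald test called 18.

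At the synchronised luteal phase, also apart from the choice, no Suffolk ewe reached 1 CPM of PNCK or 3 CPM of PCP4, and both genes were called higher in both Norwegian breeds against either Irish breed. All 10 Suffolk ewes had less PCP4 than any of the 17 Norwegian ewes, between 0.0574 and 2.08 CPM (median 0.652) against 5.29 to 45.4 CPM in Fur (median 21.3) and 6.83 to 38.9 CPM in NWS (median 15.3). PNCK lay between 0 and 0.680 CPM in Suffolk (median 0.313), all below the 0.869 to 7.72 CPM of the NWS ewes (median 3.35). In Fur it lay between 0.125 and 16.3 CPM (median 3.33), and replicate 6 of Fur, the lowest, was the 1 Norwegian ewe within the Suffolk range.

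Against Suffolk, PCP4 had a log2 fold change of 4.54 in Fur (SE 0.60, adjusted p = 0.00013), a 23.3-fold difference, and of 4.08 in NWS (SE 0.60, adjusted p = 0.000616), a 17.0-fold difference. PNCK had a log2 fold change of 3.92 in Fur (SE 0.63, adjusted p = 0.000408), a 15.1-fold difference, and of 3.55 in NWS (SE 0.50, adjusted p = 0.000466), an 11.7-fold difference. Of all genes, 6.44% were called higher in Fur and 2.9% higher in NWS. By unadjusted p, PCP4 ranked 34th of 14811 genes in Fur and 40th in NWS, and PNCK 169th and 28th. No ewe of Fur, NWS or Suffolk changed these 4 calls when it was left out.

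Against Belclare, PNCK had log2 fold changes of 3.75 in Fur (SE 0.76, adjusted p = 0.000845) and 3.37 in NWS (SE 0.66, adjusted p = 0.00221). PCP4 had smaller ones, 2.69 in Fur (SE 0.69, adjusted p = 0.0051) and 2.22 in NWS (SE 0.70, adjusted p = 0.0281), where 8.81% of all genes were called higher in Fur and 7.05% higher in NWS. Belclare ewes themselves spread widely in PCP4, from 0.188 to 15.4 CPM (median 1.10), with replicates 9, 1 and 2 at 15.4, 7.03 and 6.89 CPM. Against Suffolk, PCP4 in Belclare had a log2 fold change of 1.85 (SE 0.81, adjusted p = 0.164) and PNCK one of 0.17 (SE 0.66, adjusted p = 0.896), and neither was called, in a comparison that called 0.736% of genes higher in Belclare. In NWS against Fur neither gene was called, with 0.0135% of genes called higher in NWS. The log2 fold changes were -0.38 for PNCK (SE 0.60, adjusted p = 0.842) and -0.48 for PCP4 (SE 0.39, adjusted p = 0.673).

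Between the luteal and the follicular phase of the synchronised cycle, PNCK was called higher at the luteal phase in Suffolk and PCP4 lower in NWS. The follicular ewes of these contrasts and of their interaction are those on which the choice of the genes rests, so their p-values are not independent of that choice. In Suffolk the mean of PNCK was 0.323 ± 0.225 CPM (SD, n = 10) at the luteal phase and 0.0430 ± 0.0604 CPM (n = 11) at the follicular phase. Its log2 fold change was 2.79 (SE 0.60, adjusted p = 0.00124), which was called, with 17.1% of all genes called in either direction. Most of these Suffolk libraries held few counts, with 7 of 10 luteal ewes and 0 of 11 follicular ewes above the limit of detection. PCP4 in Suffolk had a log2 fold change of 1.20 (SE 0.70, adjusted p = 0.187), and DES, the intermediate filament protein of muscle, one of 1.24 (SE 0.43, adjusted p = 0.0307).

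In NWS PCP4 was lower at the luteal phase, at 16.6 ± 9.93 CPM (n = 8) against 35.5 ± 21.7 CPM (n = 10). Its log2 fold change was -1.08 (SE 0.42, adjusted p = 0.0482), which was called, with 22.1% of all genes called. With 1 fit of all 12 groups its adjusted p was 0.294 at a similar value. PNCK in NWS had one of -0.72 (SE 0.38, adjusted p = 0.135). DES and ACTG2, an actin of smooth muscle, had log2 fold changes of -0.94 (adjusted p = 0.00843) and -1.89 (adjusted p = 0.000269) in the same ewes. In Fur neither gene was called, at -0.20 for PNCK (SE 0.55, adjusted p = 0.786) and -0.70 for PCP4 (SE 0.42, adjusted p = 0.186), with 23.8% of genes called.

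In Belclare the phase difference rested on 1 ewe. With all ewes, PNCK had a log2 fold change of -1.02 (SE 1.06, adjusted p = 0.461) and PCP4 one of -0.13 (SE 1.19, adjusted p = 0.938), with 22.4% of all genes called. Without replicate 2 of the follicular phase, both were higher at the luteal phase and called, PNCK by 2.23 (adjusted p = 0.0386) and PCP4 by 4.60 (adjusted p = 0.000545) on the log2 scale. That ewe had 8065 CPM of DES, where the other 9 Belclare ewes of its group had at most 491 CPM. Whether the phase difference itself varied between breeds was tested by an interaction of breed and phase, which had an adjusted p of 0.176 for PNCK and 0.538 for PCP4, with 0.898% of genes called. Without Belclare replicate 2 these were 0.021 and 0.000832. Replicate 2 was chosen for leaving out after its values were seen, so the calls and p-values without it are a description.

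Between the synchronised and the natural cycle at the follicular phase, neither gene was called in any breed. The synchronised ewes are again those that served to choose the genes, so these p-values and those of the interaction are not independent of the choice. In Suffolk the synchronised minus natural log2 fold changes were -4.15 for PNCK (SE 1.01) and -3.65 for PCP4 (SE 0.98). Both had an adjusted p of 0.495, and edgeR called 0 genes, or 0% of all genes. In that comparison 1267 genes had an unadjusted p under 0.05 and DESeq2's Wald test called 7 genes. The high natural ewes were Suffolk replicates 6 and 7 described above. In Fur the log2 fold changes were 0.36 for PNCK and 0.50 for PCP4 (adjusted p = 0.496 and 0.413), with 4.92% of genes called. In NWS they were 0.23 and -0.38 (adjusted p = 0.828 and 0.811), with 0.0135% of genes called, and 0.17 and -0.59 without natural replicates 4 and 10 (adjusted p = 0.913 and 0.74). In Belclare they were 0.15 and 0.17 (both adjusted p = 1), with 0% of genes called by edgeR, 293 genes at an unadjusted p under 0.05 and 0 called by DESeq2. Without Belclare replicate 2 of the synchronised cycle they were -3.10 and -4.57 (both adjusted p = 1). The interaction of breed and cycle had an adjusted p of 0.0863 for PNCK and 0.176 for PCP4, with 2.44% of genes called. Without Belclare replicate 2, left out after its values were seen, the adjusted p were 0.0104 and 0.0137.

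**Figure D2:**
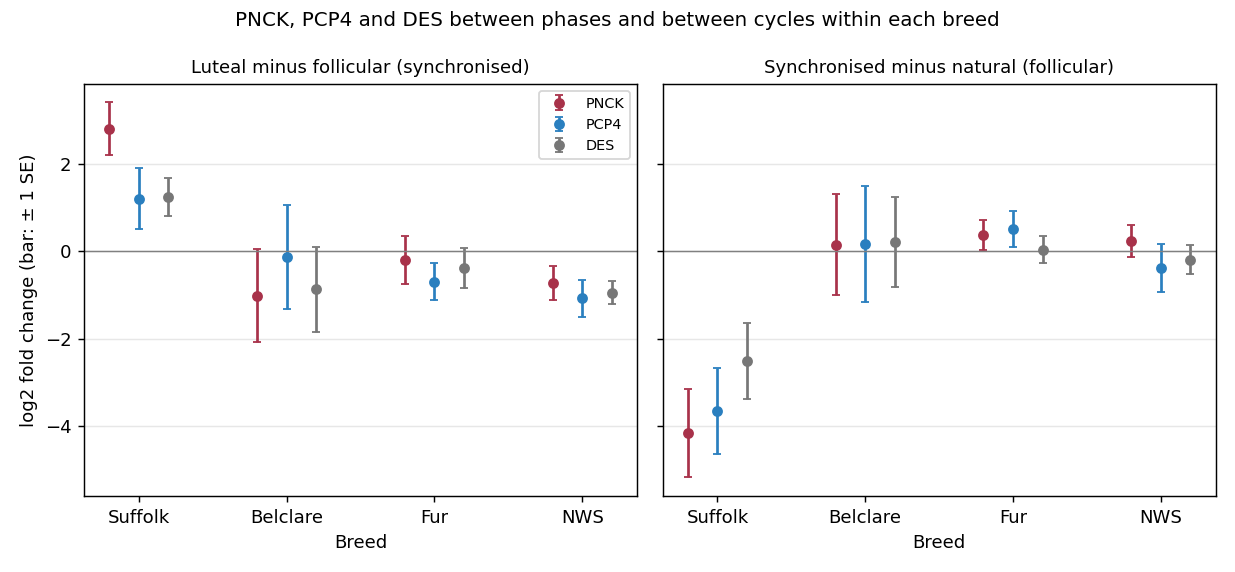
Log2 fold changes of PNCK, PCP4 and DES within each breed, luteal minus follicular phase of the synchronised cycle (left) and synchronised minus natural cycle at the follicular phase (right), each with a bar of 1 standard error on either side. Suffolk stands highest on the left and lowest on the right for all 3 genes, and the bars of Belclare are the widest.

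The level of smooth muscle genes moved with both members. It was measured in each ewe as the log2 CPM averaged over ACTG2 and DES. This level had medians of 6.94, 7.25 and 7.99 in Suffolk at the synchronised follicular, natural follicular and synchronised luteal phase, and of 6.52, 8.10 and 7.73 in Belclare. In Fur the medians were 11.13, 11.29 and 10.08, and in NWS 11.53, 11.41 and 10.08. At the luteal phase, all 5 smooth muscle markers with an identifier were called higher in Fur than in Suffolk and 4 of 5 in NWS. Of all genes, 6.44% were called higher there in Fur and 2.9% in NWS. At the natural follicular phase 1 of 5 was called in Fur, where 4.54% of all genes were called higher. In NWS none of the 5 was called at that phase, where the share of all genes was 0.533%. ACTG2 and DES had adjusted p of 0.104 and 0.237 there by edgeR. These marker genes were named by the study from ewes of this series, so their direction is not independent evidence.

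Within groups, where breed and state are the same, PNCK rose with the smooth muscle level from ewe to ewe. Its relation was computed in the 8 groups in which its median exceeded 3 counts, and Pearson's r lay between 0.641 and 0.949 (median 0.904). Two-sided permutation tests, exact in groups under 10 ewes, passed an adjusted p of 0.05 in 7 of the 8, with adjustment over the 28 relations computed. Spearman's rho lay between 0.552 and 0.964 and passed in 7 of 8. The exception by both measures was Suffolk at the luteal phase (r = 0.641, permutation adjusted p = 0.0522; rho = 0.552, permutation adjusted p = 0.135, n = 10). With the 2 ewes farthest from the median smooth muscle level left out, r lay between 0.382 and 0.900.

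PCP4 rose with the smooth muscle level in 9 of 12 groups by Pearson's r, which lay between 0.208 and 0.931 (median 0.871), and in 8 of 12 by Spearman's rho, which lay between -0.0546 and 0.933. In Suffolk at the luteal phase (r = 0.208, permutation adjusted p = 0.603, n = 10) and NWS at the luteal phase (r = 0.301, exact permutation adjusted p = 0.512, n = 8) it did not pass, and r was -0.348 and -0.245 with the 2 ewes farthest from the median left out. In Suffolk at the synchronised follicular phase r was 0.548 (permutation adjusted p = 0.1001) and rho 0.734 (permutation adjusted p = 0.0243). In Belclare at the same phase r fell from 0.919 to 0.572 without the 2 farthest ewes, and in NWS at the natural follicular phase from 0.788 to 0.331, so these 2 relations leaned on those ewes. Without NWS replicates 4 and 10 of the natural follicular phase, r was 0.855 for PCP4 and 0.970 for PNCK (exact permutation p = 0.00952 and 0.000595, n = 8). The luteal Suffolk ewes had a narrow range of smooth muscle level, 7.14 to 8.76, yet their PCP4 fell into 5 ewes at 0.187 CPM or less and 5 at 1.12 CPM or more.

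PNCK and PCP4 were related to each other in 6 of 8 groups by r, which lay between 0.193 and 0.920 (median 0.787), and in 3 of 8 by rho, which lay between 0.0788 and 0.867. In Suffolk and NWS at the luteal phase r was 0.193 and 0.202 (permutation adjusted p = 0.617 and 0.638, exact for NWS). In the luteal NWS ewes, PNCK rose with the smooth muscle level (r = 0.904, exact permutation adjusted p = 0.00685, n = 8) while PCP4 did not pass. Whether the 2 relations differ was not tested.

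**Figure D3:**
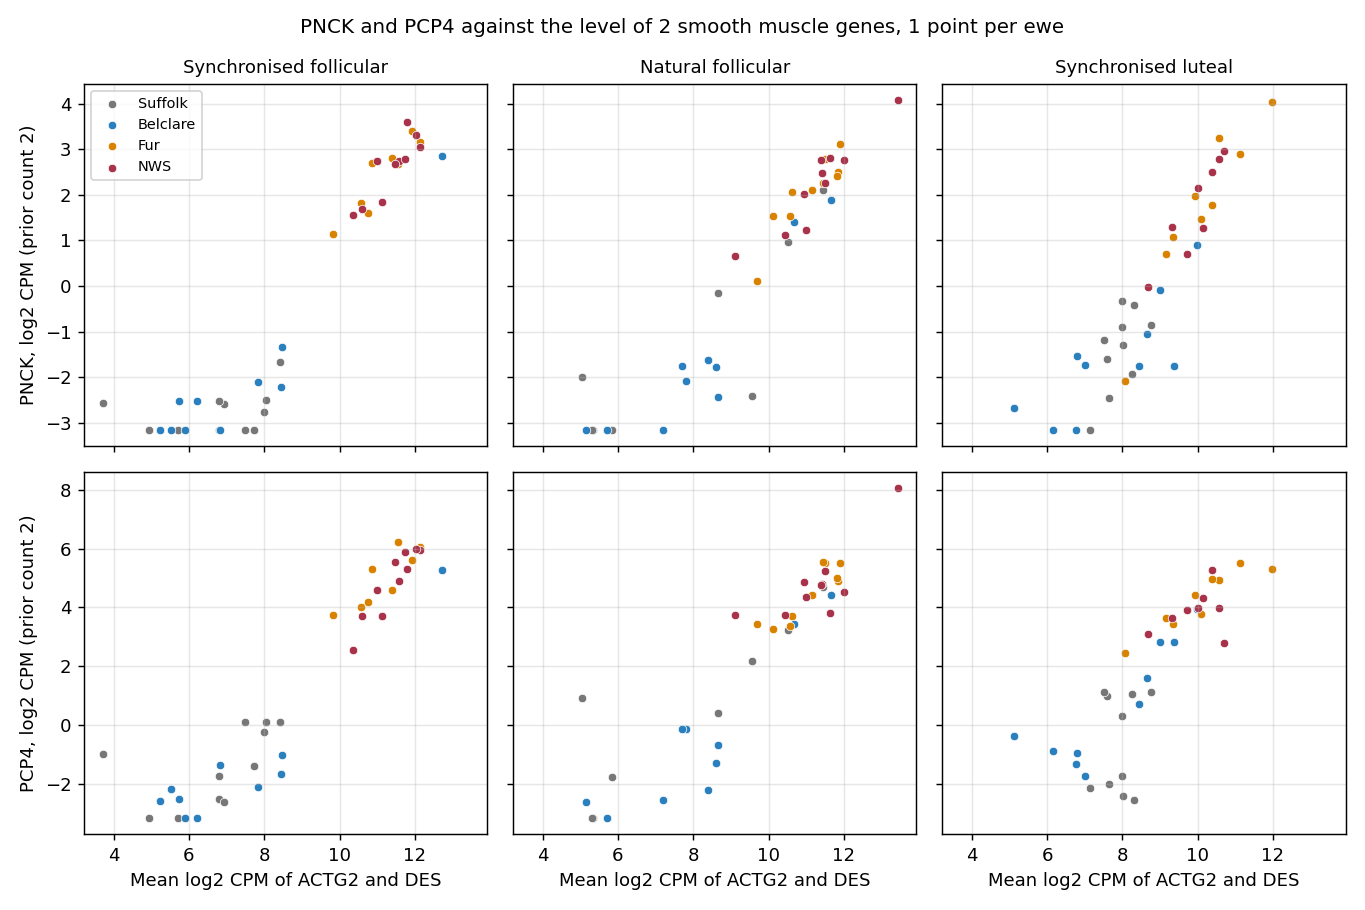
PNCK (top) and PCP4 (bottom) in log2 CPM with a prior count of 2, against the level of ACTG2 and DES (mean log2 CPM), with 1 point per ewe, coloured by breed, for each state. Some of the few Irish ewes with a high smooth muscle level lie among or near the Norwegian ewes and others lie below them. Suffolk natural follicular replicate 8, for example, had 1333 CPM of DES and 0.0744 CPM of PNCK. Points at the bottom of the PNCK panels are ewes at or near 0 counts.

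Irish ewes with 1 CPM of PNCK or more were high in DES. Of the 59 assigned Irish ewes, 6 had 1 CPM of PNCK or more, against 52 of the 55 Norwegian ewes. Each of these 6 ranked first or second in DES within its own breed and state, from 1647 CPM in Belclare luteal replicate 9 to 8065 CPM in Belclare synchronised follicular replicate 2. PCP4 reached 5 CPM in 8 Irish ewes, the same 6 with Belclare luteal replicates 1 and 2, and in all 55 Norwegian ewes. Replicates 1 and 2 had 1053 and 746 CPM of DES. Suffolk natural follicular replicate 8 had more, at 1333 CPM, but 4.39 CPM of PCP4 and 0.0744 CPM of PNCK, so the order by DES and that by PCP4 were not the same.

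Counted per 1000 reads of DES, the 6 Irish ewes had between 0.727 (Suffolk natural follicular replicate 6) and 1.17 (Belclare natural follicular replicate 4) reads of PNCK. The Norwegian ewes had a median of 1.88 in Fur (0.311 to 4.52, 27 ewes) and of 1.68 in NWS (0.880 to 3.16, 28 ewes). The same 6 ewes had between 3.66 and 9.32 reads of PCP4 per 1000 of DES, where the Norwegian medians were 11.4 in Fur (4.47 to 23.6) and 10.48 in NWS (2.34 to 20.1). All 6 lay under both Norwegian medians for either gene, and 5 of the 6 lay within the NWS range of PNCK and all 6 within that of PCP4. These ewes were picked by their PNCK level, so the values are a description. The other Irish ewes lay lower, most of them on few reads. PNCK per 1000 reads of DES had a median of 0.300 in the other 27 Suffolk ewes (0 to 4.72) and of 0.418 in the other 26 Belclare ewes (0 to 1.75). PCP4 had medians of 2.18 (0 to 59.8) and 1.52 (0 to 11.2) in the same ewes.

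With the smooth muscle level of each ewe as a covariate, the differences of both members between Norwegian and Irish breeds became smaller, and of the 13 that had been called 1 was still called. At the natural follicular phase the log2 fold change against Suffolk was 0.68 for PNCK and 0.71 for PCP4 in Fur, and 0.70 and 0.93 in NWS, with adjusted p of 0.479 or more. At the luteal phase PNCK was at 0.31 in Fur and 0.46 in NWS (adjusted p = 0.753 and 0.802). PCP4 remained called in Fur, at 2.603 (SE 0.76, adjusted p = 0.0291), while in NWS it was at 2.95 (SE 1.13, adjusted p = 0.256). Against Belclare the 8 differences were between 0.86 and 1.601 and none was called, with adjusted p of 0.0509 or more. Between the Irish breeds at the natural follicular phase the differences grew instead, from -0.33 to -0.73 for PNCK and from -0.62 to -1.74 for PCP4 in Belclare against Suffolk (adjusted p = 0.653 and 0.399). The covariate moves with breed, since at the luteal phase Suffolk lay between 7.14 and 8.76 of smooth muscle level, Fur between 8.07 and 11.97 and NWS between 8.68 and 10.71, so the fit has few ewes of different breeds at one level. The part of smooth muscle content in the breed differences cannot be told apart from breed here.

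**Figure D4:**
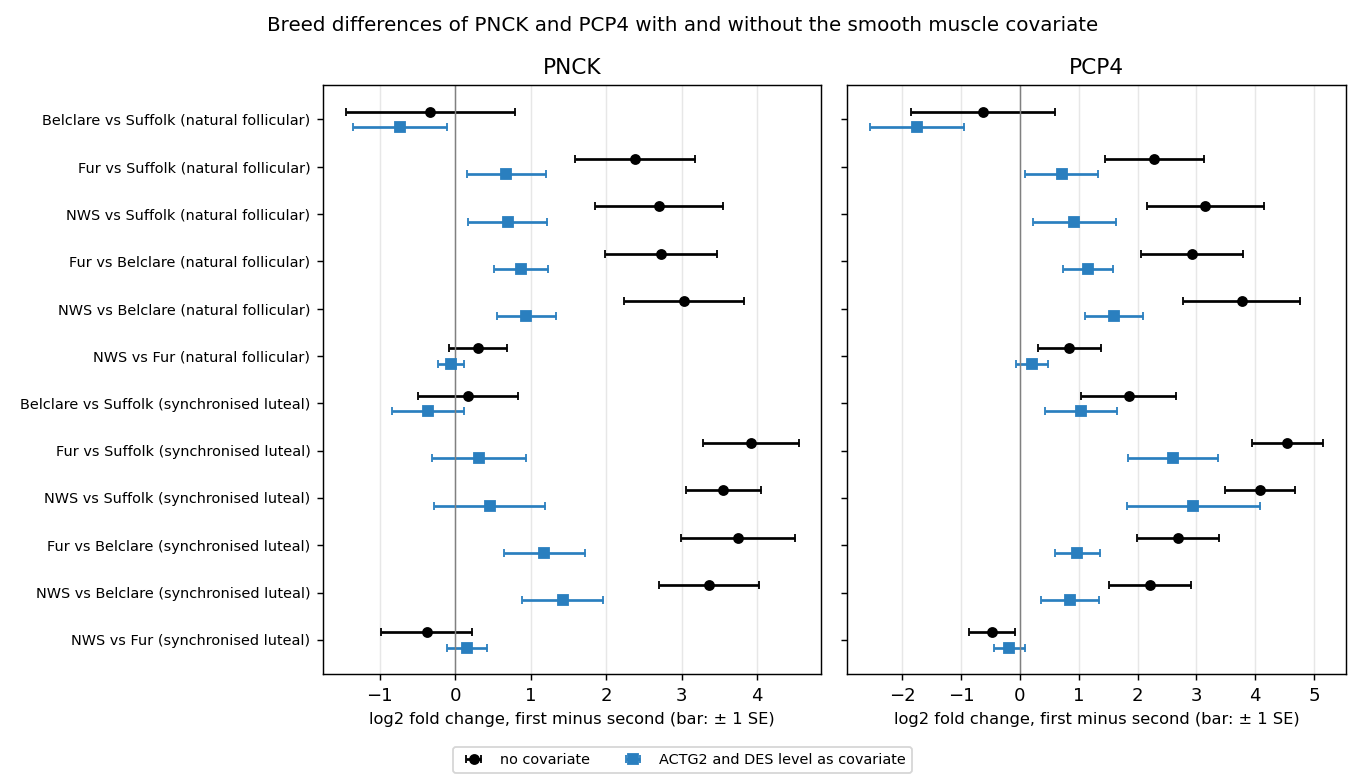
Log2 fold changes of PNCK (left) and PCP4 (right), first breed minus second, at the natural follicular and synchronised luteal phases, from edgeR without a covariate (black circles) and with the ACTG2 and DES level as covariate (blue squares), with bars of 1 standard error on either side. Differences between Norwegian and Irish breeds lie to the right of 0 in both fits and nearer to 0 with the covariate.

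With the same covariate the phase contrast took another direction in the Norwegian breeds. PNCK was then higher at the luteal phase in Fur, by 0.68 on the log2 scale (SE 0.27, adjusted p = 0.0443), and stood at 0.90 in NWS (SE 0.31, adjusted p = 0.0973). It remained called in Suffolk, at 2.20 (SE 0.66, adjusted p = 0.0163). PCP4 was higher at the luteal phase in Belclare, by 2.46 (SE 0.51, adjusted p = 0.000648), and stood at 0.21 in Fur and 0.82 in NWS (adjusted p = 0.497 and 0.4). Without the covariate both Norwegian breeds had negative values for both genes. In Belclare PCP4 was then at -0.13, a value that rested on a single follicular ewe as given above. The covariate fit was not repeated without that ewe. The follicular ewes here are those that served to choose the genes, so these p-values are not independent of that choice. The study also listed ACTG2 and DES from those ewes. Of the covariate's genes, ACTG2 stood at -1.33 in Fur and -1.89 in NWS between phases, and DES at -0.38 and -0.94. Against DES alone, the mean log2 ratio of PNCK was -8.93 at the follicular and -9.10 at the luteal phase in Fur. In NWS this ratio was -9.09 and -8.99. Whether the change of direction rests on ACTG2 was not tested.

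Over all assigned ewes, the genes whose log2 CPM was most like that of the members were muscle genes and unnamed genes. These correlations are across ewes that share breed, state and tissue make-up, and are given as a description. For PNCK the named genes of highest Pearson's r were POPDC2 (0.946), a membrane protein of striated and smooth muscle, PCP4 (0.928), ASB2 (0.922), a muscle ubiquitin ligase subunit, DES (0.916) and ACTG2 (0.914). For PCP4 they were PNCK (0.928), POPDC2 (0.910), DES (0.900), ACTG2 (0.897) and ASB2 (0.896). After the mean of each breed and state was subtracted, the same 5 named genes led for each member, with r between 0.777 and 0.845 for PNCK and between 0.747 and 0.802 for PCP4. The unnamed gene ENSOARG00000020797 had the highest r of all genes with both members, 0.948 with PNCK and 0.930 with PCP4, followed among unnamed genes by ENSOARG00000017589 for PNCK (0.933) and ENSOARG00000011889 for PCP4 (0.921). Only 1352 identifiers have a name here, and the muscle genes among them are ones the study listed.

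Of the other genes of the calmodulin and calcium pathway, more were called lower than higher in Fur against Suffolk. The same held in both Norwegian breeds against Belclare, while few were called in NWS against Suffolk. Lists covered calmodulin-dependent kinases, other calmodulin-binding enzymes and motors, targets of calcineurin and the kinases, calcium entry, release and removal, and calcium sensors. They held 45 genes with an identifier, the 2 members included, and all 45 were tested. Most of them have a name because the study lists them as higher in Suffolk than in Fur at the synchronised follicular phase, so their direction was in part fixed by that choice. At the natural follicular phase, 1 of the 45 was called higher in Fur than in Suffolk, which was PNCK, and 10 lower. Of all genes, 4.54% were called higher there and 5.08% lower. In NWS 1 of the 45 was called, which was lower, against 0.459% of all genes. It was no longer called without replicates 4 and 10. At the luteal phase 3 were called higher in Fur and 11 lower, where 6.44% of all genes were called higher and 7.4% lower. The 3 were the members and CACNG6, a subunit of voltage-gated calcium channels (log2 fold change 1.88, adjusted p = 0.0131). In NWS 2 were called higher, the members themselves, and 3 lower, where 2.9% of all genes were called higher and 1.45% lower. Against Belclare, 2 of the 45, the members, were called higher in each Norwegian breed at each phase. At the natural follicular phase 12 were called lower in Fur and 8 in NWS, and at the luteal phase 10 in each. Of all 14811 genes, 1056, 696, 1104 and 680 were called lower in these comparisons, and 1273, 1224, 1305 and 1044 higher. The calmodulin genes and the myosin light chain kinase of smooth muscle have no identifier here and were not analysed.

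The list of calcium entry, release and removal held 20 genes, among them channels, receptors, pumps and phospholipases. Of these, OXTR, the oxytocin receptor, which raises calcium in uterine muscle, was lower than in Suffolk at the natural follicular phase in both breeds. Its log2 fold change was -3.66 in Fur (SE 0.99, adjusted p = 0.0175) and -4.24 in NWS (SE 0.95, adjusted p = 0.0432). Without NWS replicates 4 and 10 the call in NWS was lost, at -4.24 (adjusted p = 0.117). Another 2 were called lower at the luteal phase in both breeds. ATP2A3, a pump that returns calcium to the endoplasmic reticulum, had -0.67 in Fur (adjusted p = 0.00162) and -0.67 in NWS (adjusted p = 0.0063), and ORAI2, a subunit of store-operated calcium channels, had -0.90 (adjusted p = 0.000935) and -0.64 (adjusted p = 0.0249). The median log2 fold change of these 20 genes was between -0.64 and -0.43 over the 4 comparisons of Fur and NWS with Suffolk, where the median of all genes was between -0.03 and 0.01. The other kinases of the list, DAPK2 and MYLK3, were called in neither breed against Suffolk at either phase.

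Markers of other cell types were read in the same ewes. Of the 4 neuronal markers read with an identifier, SNAP25, STMN2, TUBB3 and RET, none was called higher in Fur or NWS than in Suffolk at the natural follicular or the luteal phase. In Fur 1 of 4 was called lower at each of these phases, and in NWS 1 of 4 at the luteal phase. Of all genes, 5.08% and 7.4% were called lower in Fur at these phases, and 1.45% in NWS at the luteal phase. None of the 4 was called in NWS at the natural follicular phase. There STMN2 and RET had unadjusted p of 0.0332 and 0.00231 by edgeR, with adjusted p of 0.212 and 0.076. Against Belclare, 1 of the 4 was called higher in Fur and in NWS at both phases. Of all genes, 7.05% to 8.81% were called higher there. Lower than in Belclare were 2 of 4 in Fur and 1 in NWS at the natural follicular phase, and 1 and 0 at the luteal phase. Of all 14811 genes, 1056, 696, 1104 and 680 were called lower in these comparisons. The summed level of the 4 markers had medians of 69.0 CPM in Suffolk, 48.4 in Belclare, 38.3 in Fur and 49.6 CPM in NWS at the natural follicular phase, and of 32.0 CPM in Suffolk, 19.8 in Fur and 19.2 CPM in NWS at the luteal phase. The Belclare ewes of the luteal phase lay between 10.7 and 29.4 CPM, with a median within 1 CPM of those of Fur and NWS. Over all ewes SNAP25, a protein of nerve terminals, had a median of 12.9 CPM.

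Some epithelial markers were called lower than in Suffolk where the members were higher, and most were called lower than in Belclare. The summed level of the 14 markers had medians of 5519 CPM in Suffolk and 6827 CPM in Belclare at the natural follicular phase, against 3127 CPM in Fur and 3135 CPM in NWS. Of the 14, 8 were called lower in Fur than in Suffolk at that phase and 2 in NWS, and 6 and 3 at the luteal phase, against the same shares of all genes called lower (5.08%, 0.459%, 7.4% and 1.45%). The 2 in NWS, ST14 and CLDN3, were not called without replicates 4 and 10 (adjusted p = 0.107 and 0.112). Their part in the levels of PNCK and PCP4 was not tested.

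Of the 4 fibroblast markers, PI16, a gene of connective tissue fibroblasts, was called higher in 3 of the 4 comparisons of Fur or NWS with Suffolk. Compared with Suffolk it had luteal log2 fold changes of 3.49 in Fur (SE 0.49, adjusted p = 0.000223) and 3.74 in NWS (SE 0.57, adjusted p = 0.000834). Those of the natural follicular phase were 1.95 in Fur (SE 0.60, adjusted p = 0.0318) and 2.26 in NWS (SE 0.72, adjusted p = 0.0982). The other 3, FAP, PDGFRB and MMP2, did not follow PI16. FAP and PDGFRB were called lower in Fur at the luteal phase, and none of the 3 was called in the other comparisons of Fur or NWS with Suffolk. The summed level of the 4 had luteal medians of 718 CPM in Suffolk, 501 in both Belclare and Fur and 520.2 CPM in NWS. Of 8 lymphocyte markers, 5 were called lower than in Suffolk in luteal Fur ewes and 1, JAK3, in luteal NWS ewes, and none at the natural follicular phase, where IKZF3 had an unadjusted p of 0.0296 in Fur and 0.0373 in NWS. Of 4 endothelial markers 1 was called lower in Fur at each of the 2 phases and none in NWS. The shares of all genes called lower than in Suffolk at the luteal phase were 7.4% in Fur and 1.45% in NWS. At the natural follicular phase these shares were 5.08% and 0.459%. The part of these cell types in the levels of PNCK and PCP4 was not tested.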

How the data were processed

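The authors trimmed paired reads of stranded polyA libraries with BBDuk, mapped them with STAR 2.6.1b to the Oar_v3.1 assembly of sheep, kept uniquely mapped pairs with few mismatches and assigned them to Ensembl genes with Subread 1.6.3 (featureCounts). They deposited raw counts per gene and ewe, with no normalisation; the strand setting of the counting is not given in the sources used here. No annotation of that build was used here, so no coordinates or sequences are given.

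Samples were grouped by the breed, cycle and phase of their labels, and 1 ewe whose labels disagree was left out of every comparison. Total counts of the assigned ewes were 12238996 to 31261671, which sets counting error only. No 2 libraries of a group agreed within sampling noise (lowest chi-square per degree of freedom 16.1 over 490 pairs). Genes reaching 1 CPM in 10 or more of the 39 ewes of the synchronised follicular phase, 14811 in all, were tested for each pair of groups in a fit of those ewes, with TMM normalisation and the quasi-likelihood F test of edgeR 4.0.16 in R 4.3.3. The standard error was the log2 fold change divided by the square root of F. Alternatives were DESeq2 1.42.0, its size factors, no filter, 1 fit of all 12 groups, a replicate block, the smooth muscle covariate and ewes left out, with 94 leave-one-out refits. The test was tried on simulated counts. Replicate numbers are shared by different animals, and in none of 20 comparisons did every same-numbered pair deviate together (r above 0.1). PNCK, PCP4 and the gene lists were chosen with earlier results of these data known. Named genes besides the members were ACTG2 and DES, the genes of highest correlation with each member, and the list genes called against Suffolk in both Norwegian breeds; single ewes and marker genes were singled out after their values were seen. Library differences within a group may be technical as well as between ewes. A further neuronal marker is not reported here and was left out of its list's counts and sums.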

Additional observations from a re-analysis of the deposited data

Results flagged for a closer look

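In 22 combinations of gene and group with 8 to 10 ewes, the highest or lowest ewe stood apart by Dixon's criterion in 10. Each time the ewe was the highest. For normally distributed values chance flags about 1 in 20. CPM were used without a log scale, and the 2 genes share their ewes, so that rate does not measure chance here. In Belclare, replicate 2 of the synchronised follicular phase had 7.10 CPM of PNCK and 38.6 CPM of PCP4, where the next ewes had 0.284 and 0.379 CPM. Belclare luteal replicate 9 had 1.74 CPM of PNCK and 15.4 CPM of PCP4, and Belclare natural follicular replicate 2 had 21.4 CPM of PCP4. Suffolk natural follicular replicate 7 had 4.19 CPM of PNCK and 26.0 CPM of PCP4. NWS natural follicular replicate 5 had 16.8 CPM of PNCK and 264 CPM of PCP4, and NWS luteal replicate 7 had 38.9 CPM of PCP4. All of these ewes but the last were also the highest of their group in DES. The part of DES or of smooth muscle in these values was not tested.

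The Suffolk ewe whose labels name different cycles and phases had PNCK and PCP4 above the limit of detection, with 1.27 CPM of PNCK (22 counts) and 0.921 CPM of PCP4 (16 counts). It enters no comparison.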

How the results depend on the processing

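Depth limits PNCK in the Irish ewes, most of which held 3 counts or fewer, so fold changes against them depend on few reads. With DESeq2's size factors all 44 results for the members were unchanged in direction and call, as were all 8 without the 2 NWS ewes of low COX-1. Numbers of called genes were within 1.5 times in 91 of 136 refits, and in NWS against Suffolk at the natural follicular phase they fell from 147 to 0 without those 2 ewes. For the gene lists of that comparison, leaving them out was added after seeing the data, and it ended the 3 calls there, of OXTR, ST14 and CLDN3. Groups past the threshold in the relations to the smooth muscle level or between the members were within 1.5 times with a prior count of 0.5 or DES alone. With DES alone r of PCP4 in luteal Suffolk ewes was -0.0800. All values below are log2 fold changes unless called p, the latter adjusted.

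At the natural follicular phase, PNCK in Fur against Suffolk was 2.40 (p = 0.0505) with no filter. PCP4 there was called with DESeq2 (2.29) and with 1 fit of all 12 groups (2.33). In NWS against Suffolk DESeq2 gave 2.70 for PNCK and 2.46 for PCP4, and 1 fit of all groups 2.73 and 3.15, all called. With the smooth muscle covariate PNCK was no longer called against Suffolk in Fur (0.68), nor either gene against Belclare in Fur (0.87 and 1.15) or NWS (0.95 and 1.601), and PNCK in NWS against Fur turned to -0.052. At the luteal phase the covariate ended the calls of PNCK against Suffolk in Fur (0.31) and NWS (0.46), of PCP4 in NWS (2.95), and of PNCK and PCP4 against Belclare in Fur (1.18 and 0.98) and NWS (1.42 and 0.86). PNCK turned to -0.36 in Belclare against Suffolk and to 0.16 in NWS against Fur.

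For the phase contrast the covariate turned PNCK and PCP4 to 0.81 and 2.46 in Belclare, 0.68 and 0.21 in Fur and 0.90 and 0.82 in NWS. Without Belclare replicate 2, chosen after seeing the data, they were 2.23 and 4.60 in Belclare, and DESeq2, which by default replaces outlying counts in groups of this size, gave 2.30 for PNCK. PCP4 in NWS was no longer called with no filter (-1.11, p = 0.0518) or 1 fit of all groups (-1.10). For the cycle contrast in Belclare, DESeq2 gave -2.27 and -3.26, the covariate -0.18 and -0.62, and the fit without replicate 2 gave -3.10 and -4.57, none called. The interaction with phase had p = 0.021 for PNCK and 0.000832 for PCP4 without Belclare replicate 2, and that with cycle 0.0104 and 0.0137. DESeq2's likelihood ratio test gave 0.0199 for PNCK and cycle.

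Replicate numbers are shared by different ewes, so they do not pair the animals. With the replicate block 31 of 40 results kept direction and call. PCP4 in Fur against Suffolk at the natural follicular phase was called (3.60), PCP4 between phases in NWS was not (-0.78), and PNCK in Belclare against Suffolk turned to 0.27 at the natural follicular and -0.27 at the luteal phase. With the block Belclare stood at 0.80 and 2.74 between phases, the latter called, and at -0.84 and -1.33 between cycles, and PCP4 in NWS between cycles at 0.10.

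With each ewe left out in turn, PNCK against Suffolk lay between 2.18 and 3.50 in Fur and 2.36 and 3.82 in NWS at the natural follicular phase, and PCP4 between 2.09 and 3.47 and between 2.10 and 4.33. At the luteal phase PNCK lay between 3.49 and 4.11 in Fur and 3.34 and 3.74 in NWS, and PCP4 between 4.37 and 4.74 and between 3.77 and 4.28. Between phases in Suffolk, a set added after seeing the data, PNCK lay between 2.61 and 3.27 and PCP4 between 1.001 and 1.39.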

Other observations

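The Suffolk ewe with disagreeing labels had 626 CPM of DES and 238 CPM of ACTG2 in a library of 15387419 counts. Among the 10 luteal Suffolk ewes, PCP4 took 2 separate levels, at 0.0574, 0.0741, 0.116, 0.138 and 0.187 CPM in replicates 4, 10, 7, 3 and 8 and at 1.12, 1.88, 1.95, 2.08 and 2.08 CPM in replicates 2, 6, 5, 1 and 9. The counts behind the lower level were 1 to 4 and those behind the upper one 23 to 43. At the synchronised follicular phase, 4 of the 11 Suffolk ewes, replicates 7, 5, 1 and 8, had between 0.742 and 0.966 CPM of PCP4 and the other 7 at most 0.394 CPM. These ewes were set apart after their values were seen, and nothing was tested on them.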
